A study of Mus musculus with 8 samples.

Results

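The difference that AUF1 overexpression made to the loading of each mRNA on heavy polysomes was examined in C2C12 cells, a mouse myoblast line that leaves the cell cycle and fuses into myotubes when serum is lowered. All 8 of the 8 libraries of the series enter it. They fall into 4 groups of 2, which are heavy polysome RNA of AUF1-overexpressing cells, total RNA of AUF1-overexpressing cells, heavy polysome RNA of WT cells and total RNA of WT cells. All cells were grown in medium with 10% FBS and then held for 48 h in DMEM with 2% HS, so every group was differentiating, and each library was made from 500 ng of RNA with a NEBNext Ultra kit. The polysome libraries are titled High and their molecule is given as cytoplasmic RNA. The sources used here state neither a vector control for the WT cells nor if the AUF1 line is a pool or 1 clone, so AUF1 and a difference between the lines cannot be told apart. Replicates carry the numbers 1 and 2 in the titles, while the second is 3 in the library names. No label ties the 2 libraries of a group to different cultures, and the p-values therefore reflect a spread that may be purely technical. That spread also holds a difference between the replicate numbers that the groups shared. Deviations from the group means correlated at 0.62 to 0.81 between groups. The main model has no term for this difference, so its SEs and p-values include it.

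For each gene and replicate number, loading is the log2 CPM (the count of a gene scaled to a common library total, with TMM factors) on heavy polysomes minus that in total RNA. The shift is the loading in AUF1 cells minus the loading in WT cells, on the log2 scale, computed once within replicate 1 and once within replicate 2. These values share no library. A positive shift means that the mRNA was more weighted to polysomes in AUF1 cells.

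Ribosomes translating an mRNA together form a polysome, and mRNAs carrying many ribosomes sediment deepest in a sucrose gradient, so the ratio of heavy polysome to total RNA is used as a measure of how well an mRNA is engaged in translation. AUF1 is the product of Hnrnpd, an RNA-binding protein of the hnRNP family that recognises AU-rich elements in 3′ untranslated regions (UTRs). It is best known for speeding the decay of such mRNAs and is also known to stabilise some mRNAs and to promote the translation of others. In muscle it is known to act in satellite cells, the stem cells of muscle repair. The study asks how extra AUF1 acts on the stability and the translation of mRNAs of muscle regeneration, and the shift addresses the translation side of that question.

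The core of an AU-rich element is the pentamer AUUUA, written ATTTA in the DNA letters used here. The stretches below show what such sites look like in the 3′ UTRs of the AU-rich mRNAs named later and of Hnrnpd itself. Each is 30 bases of a GENCODE M21 transcript (mm10), 5′ to 3′ on the transcript's strand, and is the first window with the most copies of ATTTA. Capitals mark the pentamer, which was searched on the sense strand with overlapping copies counted. Of 12441 tested genes with a 3′ UTR, 4231 had no ATTTA in it. Pim1, a serine/threonine kinase, has 4 overlapping copies in its window, starting at base 943 of a 3′ UTR of 1365 bases. Jund, a subunit of the transcription factor AP-1, has 1 copy in the whole 3′ UTR. Hnrnpd has 10 copies in 5429 bases.
Pim1: ttaatgtATTTATTTATTTATTTAtttggt
Egr3: tttagacacatatATTTAcataacacacac
Cdkn1a: tatttgtgttttaATTTAaacgtctcctgt
Ccnd1: tcctttctatctgATTTAagcaaaagagaa
Ccl7: tattaatatttttATTTAattagccatgta
Jund: ccgattccgccctATTTAtgtttctactcg
Hnrnpd: aggaaatctattaATTTAaatagaactgca

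Hnrnpd was the first gene looked at, since it is the one overexpressed (chr5:99955935-99978938). It stood at 549 and 427 CPM on AUF1 polysomes and at 448 and 397 CPM in AUF1 total RNA, against 106 and 131 CPM on WT polysomes and 64.2 and 99.6 CPM in WT total RNA (replicates 1 and 2). Every AUF1 library was above every WT library. The counts do not separate transcripts of the introduced gene from those of the endogenous one. Its loading was 0.29 and 0.11 in AUF1 cells and 0.73 and 0.39 in WT cells, so the groups did not overlap and the shift was -0.44 in replicate 1 and -0.29 in replicate 2. edgeR's interaction estimate was -0.33 ± 0.43 (SE, n = 2 libraries per group), with an adjusted p of 1.00, so the lower loading of Hnrnpd in AUF1 cells was within the error of the model. Leaving out 1 library at a time gave -0.68 (without WT total replicate 2) to -0.01 (without WT total replicate 1). With an offset for transcript GC and length, added after the data were seen, the estimate was -0.95. The shifts with the trend on GC and length removed were -1.24 and -0.36. Both steps use the GC and length of the annotated Hnrnpd transcript, which may differ from those of the introduced one, so these values are uncertain.

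The libraries held 25281224 to 34917660 counts in genes, and counting error is small at that depth except for genes near 1 CPM. The 8 myoblast and myotube markers summed to 16030 to 22885 CPM in AUF1 libraries and to 3390 to 5096 CPM in WT libraries. Of these markers, Myog, Myh3 and Des were each higher in every AUF1 library than in any WT library. Myod1 was not, at 261 to 338 CPM in AUF1 libraries and 191 to 359 CPM in WT libraries. The 6 fibroblast markers, none of them at 0 in all libraries, summed to 13.7 to 24.2 CPM in AUF1 libraries. In WT they summed to 377 CPM on polysomes and 399 CPM in total RNA in replicate 1, and to 76.1 and 67.8 CPM in replicate 2. The 5 osteoblast markers came to 51.3 to 88.1 CPM with AUF1 and 67.5 to 113 CPM in WT (Ibsp at 0 throughout), and the 5 adipocyte markers to 15.3 to 36.8 CPM with AUF1 and 59.3 to 95.1 CPM in WT (Plin1 and Lep at 0 throughout). Immune, neuronal or glial and endothelial markers summed to at most 3.97 CPM in any library. The part of these markers in the shift was not tested. AUF1 total replicate 1 stood apart from the other libraries in base composition. Its log2 CPM followed transcript GC content across 13056 genes with a Spearman coefficient of 0.26, against 0.04 to 0.15 in the other 7 libraries. Across genes, which are not independent replicates, loading in AUF1 replicate 1 had a coefficient of -0.67 with GC, against 0.10 in AUF1 replicate 2, -0.25 in WT replicate 1 and 0.20 in WT replicate 2.

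That library enters every shift of replicate 1, which was tied to GC content far more than the shift of replicate 2. The Spearman coefficient of the shift with GC was -0.71 in replicate 1 and -0.22 in replicate 2. Genes were put into 10 equal bins by GC. In the bin poorest in GC (31.2 to 42.2%) the median shift was 0.81 in replicate 1 and 0.11 in replicate 2, and in the bin richest in GC (58.5 to 82.9%) it was -0.45 and -0.10. Both numbers therefore ran the same way along GC, with very different slopes. For this reason the gene lists are also given after a fitted trend of the shift on GC content and transcript length was subtracted within each number. This step, called removal of the trend here, was chosen after the data were seen. It left a Spearman coefficient of the shift with GC of -0.03 in replicate 1 and 0.00 in replicate 2. With transcript length the coefficients were 0.14 and 0.04 as measured and -0.14 and 0.05 afterwards, so a tie to length remained. That step also takes away any real difference that follows GC content.

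**Figure D1:**
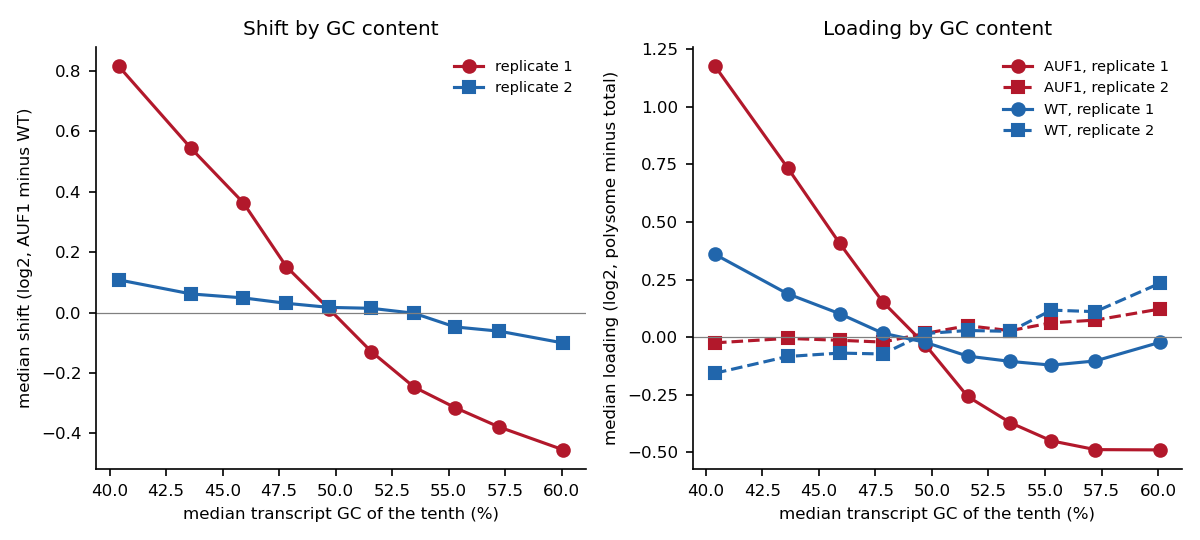
Median shift (left, log2, AUF1 minus WT) and median loading (right, log2 polysome minus total) over 10 equal bins of genes ordered by transcript GC content (x axis, %). The replicate 1 shift runs from 0.81 in the lowest bin to -0.45 in the highest and the replicate 2 shift from 0.11 to -0.10; loading in AUF1 replicate 1 is the curve that stands apart.

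No single gene passed the test of the interaction. edgeR's quasi-likelihood test called 0 of 13167 genes higher (0%) and 0 lower (0%) at an adjusted p under 0.05, and 16 genes had an unadjusted p under 0.05 (0.122%). That share is lower than a well-calibrated test would give with no effect at any gene. The error of this model includes the difference between the replicate numbers, for which it has no term. The part of that difference in the low share was not tested. The smallest adjusted p was 1.00. DESeq2 also called 0 genes, with 16 at an unadjusted p under 0.05. With the replicate number as a block edgeR called 0 genes (0%), with 49 at an unadjusted p under 0.05 (0.372%). A block for each genotype and number also gave 0 (0%), with 64 (0.486%). Both shares are low as well, and neither block has a term for a difference in loading between the numbers. For a single gene, 2 libraries against 2 allow no exact two-sided permutation p below 0.333. What follows therefore describes which genes and gene classes had shifts of the same sign in the 2 numbers, which share no library.

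Agreement between the numbers was weak over all genes. The shift had the same sign in both numbers for 59.7% of genes, above 0 in both for 3759 genes (28.5%) and below 0 in both for 4098 (31.1%). Across genes the shifts correlated with a Spearman coefficient of 0.22 and Pearson's r of 0.10. Among the 9662 genes whose mean log2 CPM was 3 or more the same-sign share was 61.9%, with coefficients of 0.32 and 0.30. With the GC and length trend removed it was 54.1%, with coefficients of 0.08 and 0.01, so most of the agreement across genes went with that trend. Shifts were wider in replicate 1 (interquartile range 0.76) than in replicate 2 (0.31). Loading itself was more alike within a number than within a genotype. Its Spearman coefficient between AUF1 and WT was 0.65 in replicate 1 and 0.71 in replicate 2, against 0.10 between the AUF1 replicates and 0.21 between the WT replicates.

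Among the 9662 genes whose mean log2 CPM was 3 or more, those with extreme shifts in 1 number leaned the same way in the other. Of all genes tested, 51.1% had a shift above 0 in replicate 2 and 46.3% in replicate 1. The 100 highest in replicate 1 (median shift 1.32, median GC 39.6%) had a median of 0.20 in replicate 2, where 82 were above 0. The 100 lowest in replicate 1 (median -0.85, GC 57.4%) had a median of -0.11 in replicate 2, where 66 were below 0. Read the other way, the 100 highest in replicate 2 (median 0.60) had a median of 0.23 in replicate 1, with 62 above 0. The 100 lowest in replicate 2 (median -0.53) had a median of -0.23 in replicate 1, with 73 below 0.

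A shift of at least 1.5-fold in the same direction in both numbers was seen for 138 genes higher with AUF1 (1.05%) and 219 lower (1.66%). Most of these are scarce mRNAs. At a mean log2 CPM of 3 or more there were 22 higher and 3 lower among 9662 genes. The split of higher to lower also depends on the scaling of the libraries, since scaling by library totals alone gave 179 higher and 183 lower (49.4% higher, against 38.7% with TMM). AUF1 and WT loading did not overlap, with both AUF1 values on 1 side of both WT values, for 1182 genes on the higher side (8.98%) and 1272 on the lower side (9.66%).

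**Figure D2:**
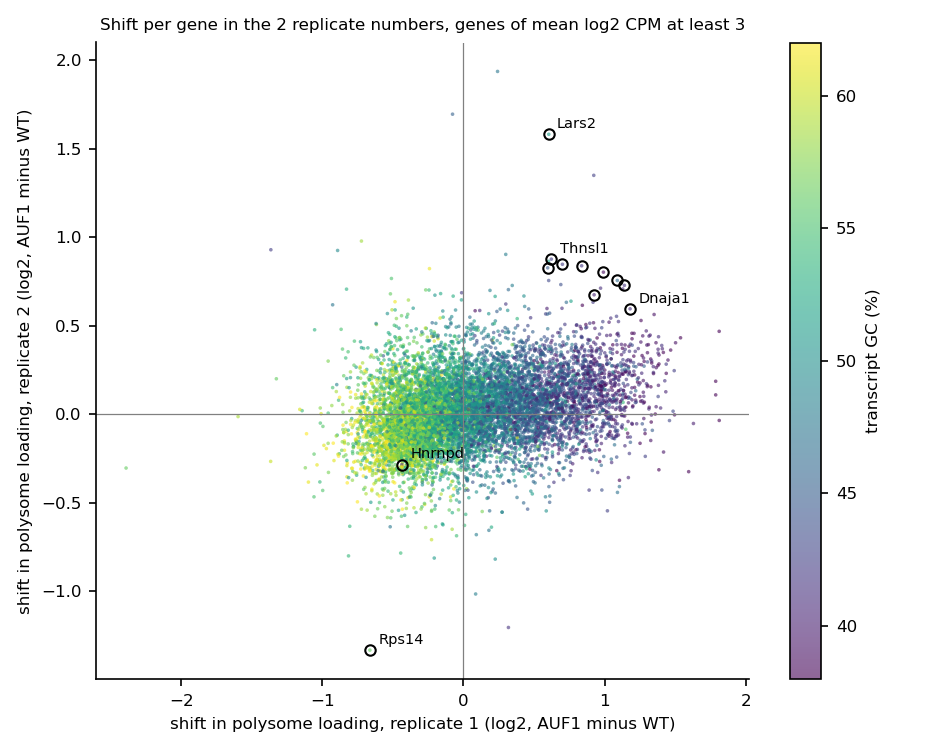
Shift within replicate 1 (x axis) and within replicate 2 (y axis), both log2, AUF1 minus WT. Shown are the 9609 genes with a GC value among the 9662 whose mean log2 CPM was 3 or more, coloured by transcript GC (%). Rings mark Hnrnpd and the genes picked for their shift in both numbers; colour runs along the x axis, with GC-poor genes at the right, and Lars2 (0.60 and 1.58) and Rps14 (-0.66 and -1.33) lie outside the cloud.

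Genes were then picked that were well expressed, had a shift of at least 1.5-fold in both numbers and showed no overlap of loading. Symbols that are no proper gene name, such as Gm or Rik models and dates, were passed over. Of the genes left, 10 were higher with AUF1 and 1 was lower. Since these criteria chose them, their values are a description. The 10 were Lars2, Mrpl1, Prkrir, Pex13, Dnaja1, Tspan6, Tmem168, Fastkd2, Thnsl1 and Cd109. Lars2, the mitochondrial leucyl-tRNA synthetase (chr9:123366927-123462666), had 109 and 80.3 CPM on AUF1 polysomes and 52.0 and 38.5 CPM in AUF1 total RNA, against 72.2 and 20.8 CPM on WT polysomes and 52.3 and 29.9 CPM in WT total RNA. It was higher on polysomes than in total RNA in both AUF1 pairs, and in WT it was above total RNA in replicate 1 and below it in replicate 2. The shift was 0.60 and 1.58, and with the GC and length trend removed 0.76 and 1.57. Mrpl1, a protein of the large mitochondrial ribosomal subunit (chr5:96209493-96266727), had loadings of 0.80 and 0.02 in AUF1 cells and -0.34 and -0.71 in WT cells. Its shift was 1.14 and 0.73, and 0.49 and 0.62 with the trend removed. Fastkd2, which acts in mitochondrial RNA processing and ribosome assembly, had loadings of 0.08 and 0.03 in AUF1 cells and -0.62 and -0.82 in WT cells, but its replicate 1 shift of 0.70 was 0.09 with the trend removed.

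Dnaja1, an Hsp40 co-chaperone of Hsp70 (chr4:40722150-40737149), had 23.2 and 30.9 CPM on AUF1 polysomes and 9.98 and 29.0 CPM in AUF1 total RNA, against 22.0 and 21.9 CPM on WT polysomes and 21.5 and 31.1 CPM in WT total RNA. The low value is that of AUF1 total replicate 1, and it sets the replicate 1 shift of 1.18. Within replicate 2 the shift was 0.60, and with the trend removed the shifts were 0.53 and 0.50. Thnsl1, a threonine synthase-like gene, had 16.9 and 16.7 CPM on AUF1 polysomes and 12.4 and 10.8 CPM in AUF1 total RNA, against 8.24 and 6.60 CPM on WT polysomes and 9.32 and 7.83 CPM in WT total RNA. It was the most even of the 10 between libraries of a group, with an edgeR estimate of 0.75 ± 0.40 (SE, n = 2 per group, adjusted p = 1.00), yet its replicate 1 shift of 0.62 was 0.02 with the trend removed.

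Of the other 5, Prkrir had shifts of 1.09 and 0.76, and 0.82 and 0.70 with the trend removed. Pex13, a docking protein for import into peroxisomes, had 0.99 and 0.80, and 0.18 and 0.66 with the trend removed. The membrane proteins Tspan6, Tmem168 and Cd109 had replicate 1 shifts of 0.84, 0.93 and 0.60, which were 0.28, 0.19 and 0.23 with the trend removed. Tspan6 stood at 35.6 CPM in replicate 1 and 2.58 CPM in replicate 2 on AUF1 polysomes, against 40.0 and 2.09 CPM on WT polysomes, so the split between the numbers was far larger than its shift. The edgeR adjusted p was 1.00 for each of the 10 genes.

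Rps14, a protein of the small ribosomal subunit, was the 1 gene on the lower side that met the same criteria. Of the 3 well-expressed genes lower by at least 1.5-fold in both numbers, it alone met all of these criteria. It had 220 and 262 CPM on AUF1 polysomes and 767 and 634 CPM in AUF1 total RNA, against 244 and 376 CPM on WT polysomes and 537 and 360 CPM in WT total RNA. Loading was -1.80 and -1.27 in AUF1 cells and -1.14 and 0.06 in WT cells, so the AUF1 values lay below both WT values while the WT values themselves differed widely. The shift was -0.66 and -1.33, and -0.32 and -1.31 with the trend removed, where replicate 1 fell short of 1.5-fold. The edgeR estimate was -1.0 ± 0.47 (SE, n = 2 per group, unadjusted p = 0.0715, adjusted p = 1.00). Ribosomal protein genes have many near-identical pseudogene copies, and the sources used here do not state how reads shared with them were counted, which makes this value uncertain.

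The gene classes were compared by the median shift of their members minus the median of all genes, which was -0.05 in replicate 1 and 0.01 in replicate 2. The all-gene median of replicate 1 was 0.05 with RLE scaling and 0.08 with library totals alone, so a shift near 0 in 1 gene has no fixed sign. None of the members of any list passed the interaction test. The proteasome, the chaperones and the hnRNP and SR proteins lay above the median of all genes in both numbers. Collagens, sarcomere genes and calcium handling genes lay below it in both.

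**Figure D3:**
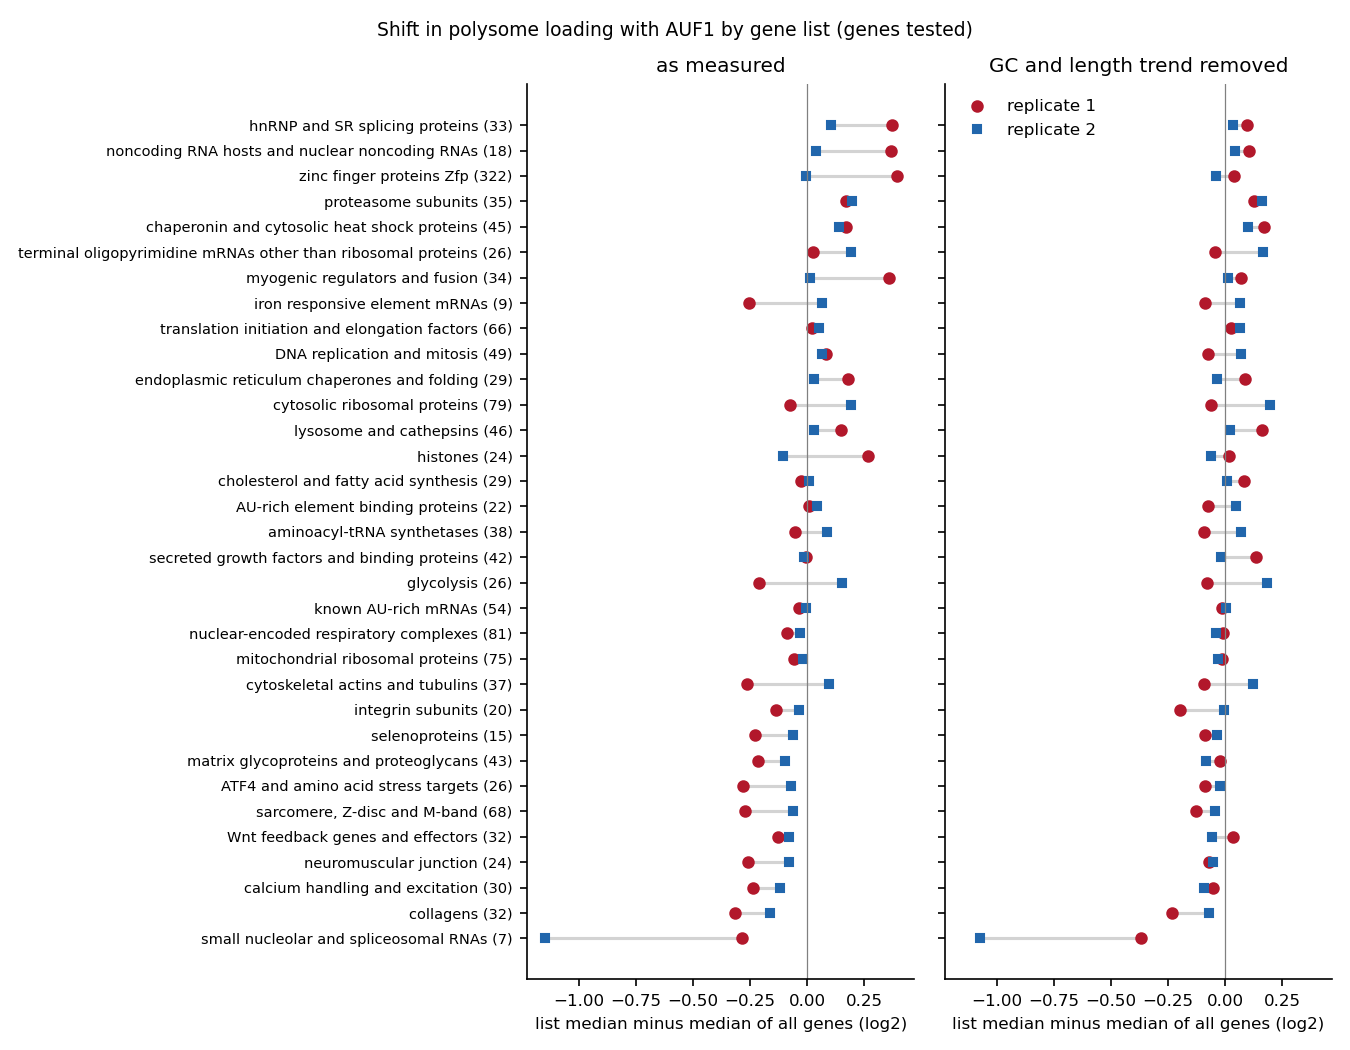
Median shift of the tested members of each gene list minus the median of all genes (x axis, log2, AUF1 minus WT), as measured (left) and with the GC and length trend removed (right), in replicate 1 (circles) and replicate 2 (squares); the number of members is in parentheses. Proteasome subunits (0.17 and 0.20) and chaperones (0.17 and 0.14) are above 0 in both numbers and in both panels, while hnRNP and SR splicing proteins and zinc finger proteins move close to 0 in the right panel.

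The proteasome, the protease that degrades ubiquitin-tagged proteins, had the largest share of members above 0 in both numbers of the 33 lists with tested genes, except with RLE scaling, where it had 71.4% and the hnRNP and SR proteins 72.7%. Its 20S core is built of alpha and beta rings, and the 19S regulatory particle holds a ring of ATPases that unfold substrates and non-ATPase subunits that recognise and deubiquitinate them. Subunits and their roles are counted here by gene name, so the assembly chaperone Psmd10 is among them. All 35 tested subunits passed the filter on mean log2 CPM as well, so none is a scarce mRNA, and 26 had a shift above 0 in both numbers (74.3%, against 28.5% of all genes) and 4 below 0 in both (11.4%, against 31.1%). The median stood 0.17 above that of all genes in replicate 1 and 0.20 above in replicate 2. With the GC and length trend removed it was 0.13 and 0.16, with 21 subunits above 0 in both (60%, against 27% of all genes) and 1, Psmd1, below 0 in both (against 27.2%). Loading of AUF1 and WT did not overlap for 12 subunits on the higher side (8.98% of all genes) and for 0 on the lower side (9.66%).

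By role, all 7 core alpha subunits (6 with RLE scaling) and all 6 ATPases had a positive shift in both numbers. The alpha subunits had medians of 0.26 in both replicates and the ATPases of 0.23 and 0.15. With the trend removed the 6 ATPases were still above 0 in both numbers, while 4 of the 7 alpha subunits were. Of the 8 core beta subunits 4 were above 0 in both, and of the 14 non-ATPase subunits 9 were. The subunits below 0 in both numbers were Psmb6, Psmd3, Psmd8 and Psmd9, named after their values were seen, with replicate 2 shifts of -0.05 to -0.01.

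Psmd10, also known as gankyrin, a chaperone that assembles the regulatory particle (chrX:140948429-140956728), led the subunits by the smaller of its shifts in the 2 numbers. It stood at 51.0 and 69.6 CPM on AUF1 polysomes and at 37.2 and 53.0 CPM in AUF1 total RNA, against 26.8 and 35.1 CPM on WT polysomes and 30.4 and 36.3 CPM in WT total RNA. In AUF1 cells both polysome libraries were above their total library and in WT cells both were below it. The shift was 0.63 and 0.44 (mean 0.54 ± 0.13, SD, n = 2 numbers), the edgeR estimate 0.53 ± 0.45 (SE, n = 2 per group, adjusted p = 1.00), and with the trend removed the shifts were 0.20 and 0.33.

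Psmc6, an ATPase of the base of the regulatory particle (chr14:45329788-45349705), had 171 and 251 CPM on AUF1 polysomes and 68.8 and 260 CPM in AUF1 total RNA, against 79.3 and 114 CPM on WT polysomes and 92.6 and 159 CPM in WT total RNA. The 68.8 CPM of AUF1 total replicate 1 is again the value out of line with its replicate, and its replicate 1 shift of 1.54 was 0.81 with the trend removed, against 0.43 and 0.23 in replicate 2. Psma4, a core alpha subunit, had 105 and 134 CPM on AUF1 polysomes and 71.3 and 109 CPM in AUF1 total RNA, against 56.8 and 65.4 CPM on WT polysomes and 51.2 and 67.0 CPM in WT total RNA. Its shifts of 0.40 and 0.34 were the closest to each other of the named subunits. Psmd6, a non-ATPase subunit of the lid, had loadings of 0.20 and -0.11 in AUF1 cells and -0.59 and -0.41 in WT cells, and shifts of 0.80 and 0.30, which were 0.62 and 0.24 with the trend removed.

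**Figure D4:**
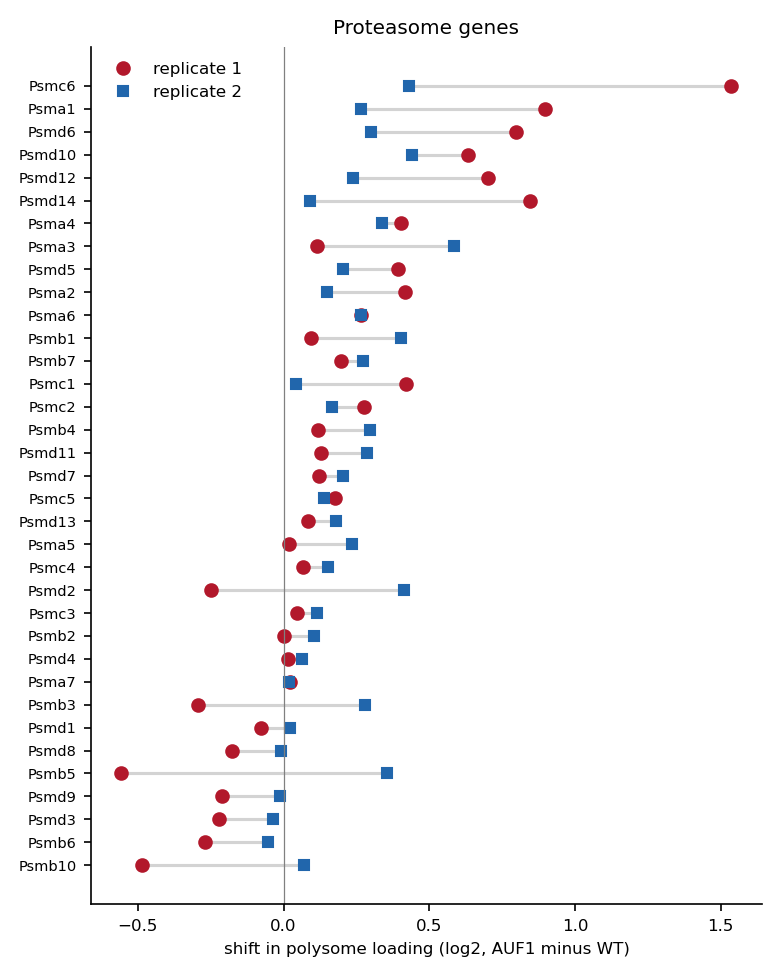
Shift in polysome loading (x axis, log2, AUF1 minus WT) of the 35 tested proteasome genes in replicate 1 (circles) and replicate 2 (squares), ordered by mean shift. In 26 genes both points are right of 0 and in 4 both are left of it; Psmc6 has the widest gap between the numbers.

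Molecular chaperones, which fold new proteins and refold damaged ones, stood 0.17 above the median of all genes in replicate 1 and 0.14 above in replicate 2, over 45 tested genes. Of these 23 were above 0 in both numbers (51.1%) and 12 below 0 in both (26.7%). With the trend removed the medians were 0.17 and 0.10, with 23 above and 8 below. The class was not uniform. The chaperonin TRiC, the ring that folds actin and tubulin, had 7 of 9 genes above 0 in both numbers and 0 below, with medians of 0.25 and 0.24 and no overlap of loading for 4 of the 9 on the higher side (8.98% of all genes). With the trend removed 5 of the 9 were above 0 in both. The 7 small heat shock proteins had 2 above and 5 below, and 4 above and 2 below with the trend removed.

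Among single chaperones, Hsp90aa1, the inducible cytosolic Hsp90, had loadings of 0.48 and -0.98 in AUF1 cells and -0.21 and -1.71 in WT cells. Both its shifts were about the same as measured (0.69 and 0.73), but they were 0.19 and 0.64 with the trend removed. Its loading differed more between the numbers than between the genotypes, and the groups overlapped. Hspa1l and Hspa1a, both Hsp70 genes, went the other way. Hspa1l had 1.55 and 2.25 CPM on AUF1 polysomes and 1.93 and 3.15 CPM in AUF1 total RNA, against 1.14 and 1.27 CPM on WT polysomes and 0.689 and 0.632 CPM in WT total RNA, and its shift was -0.97 and -1.41 (edgeR -1.28 ± 0.62, SE, n = 2 per group, adjusted p = 1.00). Hspa1a had shifts of -0.89 and -0.67 at 0.553 to 2.28 CPM. Both are scarce here, and Hspa1a has a near-identical neighbour, Hspa1b, whose shifts were 0.11 and 0.01, so their counts are uncertain.

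Genes of the translation machinery itself stood above all genes in replicate 2 and not, or hardly, in replicate 1. Many of their mRNAs begin with a terminal oligopyrimidine (TOP) tract, through which growth signalling sets their recruitment to polysomes. Cytosolic ribosomal proteins stood 0.08 below the median of all genes in replicate 1 (-0.08) and 0.19 above it in replicate 2. In replicate 2 the shift was above 0 for 63 of 79 genes, against 51.1% of all genes, and in replicate 1 for 31 of 79, against 46.3%. The 26 other TOP mRNAs had 0.02 and 0.19 relative to all genes, with 22 of 26 above 0 in replicate 2, and -0.04 and 0.16 with the trend removed. Ribosomal protein mRNAs were underrepresented on heavy polysomes in every pair, with median loadings of -0.78 and -0.36 in AUF1 cells and -0.71 and -0.63 in WT cells. As measured, 24 of 79 were above 0 in both numbers (30.4%, against 28.5% of all genes) and 9 below (11.4%, against 31.1%). With the trend removed 31 were above (39.2%, against 27% of all genes) and 8 below (10.1%, against 27.2%), with medians of -0.06 and 0.20. Translation initiation and elongation factors (66 genes) had 0.02 and 0.05, and 0.02 and 0.06 with the trend removed. Aminoacyl-tRNA synthetases (38 genes) had -0.06 and 0.09, and -0.09 and 0.07 with the trend removed.

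Single ribosomal protein genes carry the limit of near-identical copies. Rpl7, of the large subunit, had 184 and 240 CPM on AUF1 polysomes and 317 and 255 CPM in AUF1 total RNA, against 106 and 104 CPM on WT polysomes and 276 and 163 CPM in WT total RNA, with shifts of 0.59 and 0.57. Rps23 and Rpl29 were at 0.324 to 1.07 CPM and had shifts of -1.29 and -0.60 and of -1.11 and -0.53. Of the 79 tested genes, 49 reached a mean log2 CPM of 3, and of those 18 were above 0 in both numbers and 4 below.

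The sarcomere, the contractile unit of muscle, was on the lower side. The 68 tested genes of the sarcomere, Z-disc and M-band stood at -0.27 relative to all genes in replicate 1 and at -0.06 in replicate 2, with 9 above 0 in both numbers (13.2%) and 39 below (57.4%, against 31.1% of all genes). With library totals alone as the scaling 13 were above and 33 below. With the GC and length trend removed the medians were -0.13 and -0.04, with 13 above (19.1%) and 27 below (39.7%, against 27.2% of all genes). Loading did not overlap for 1 of the 68 on the higher side (8.98% of all genes) and for 11 on the lower side (9.66%). The sums of the 8 myoblast and myotube markers given above were higher in every AUF1 library, and the part of that difference in the shift was not tested. In bulk RNA, fewer cells of a type and less RNA per cell cannot be told apart.

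Within the class, the 7 myosin heavy chains, the motors of the thick filament, were below 0 in both numbers, with medians of -0.84 and -0.35, and 6 of the 7 remained so with the trend removed. Only 3 of them, Myh1, Myh3 and Myh7, reached a mean log2 CPM of 3. Myh3, the embryonic myosin heavy chain (chr11:67078300-67102291), stood at 657 and 695 CPM on AUF1 polysomes and at 998 and 1731 CPM in AUF1 total RNA, against 93.1 and 102 CPM on WT polysomes and 80.9 and 164 CPM in WT total RNA. In AUF1 cells both polysome libraries were below total RNA, and in WT cells replicate 1 was above it and replicate 2 below. The shift was -0.81 and -0.63 (mean -0.72 ± 0.12, SD, n = 2 numbers), and -0.48 and -0.60 with the trend removed, but the loadings overlapped between AUF1 (-0.60 and -1.32) and WT (0.20 and -0.68). Myh1, a fast adult isoform, had shifts of -0.83 and -0.26, and Myh7, the slow isoform, of -2.39 and -0.30.

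The 7 troponin genes, the calcium switch of the thin filament, were also below 0 in both numbers (5 of the 7 with RLE scaling or library totals alone), with shifts of -0.36 to -0.01 in replicate 1 and of -0.22 to -0.10 in replicate 2. With the trend removed only 1 of the 7 was. Myoz1, a Z-disc protein that binds calcineurin, had shifts of -2.03 and -1.24 but stood at 0.421 to 3.67 CPM. Myh6 had shifts of -3.59 and -0.52 at 0.243 to 9.96 CPM. Pdlim5, a PDZ and LIM domain protein of the Z-disc, went the other way with 0.76 and 0.64, and 0.82 and 0.63 with the trend removed.

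The regulators and other muscle genes fixed by name had small shifts for the most part. Myog, the transcription factor of terminal differentiation, had 1607 and 2246 CPM on AUF1 polysomes and 1935 and 1916 CPM in AUF1 total RNA, against 482 and 701 CPM on WT polysomes and 537 and 596 CPM in WT total RNA. Its level was higher in every AUF1 library than in any WT library, and its shift was -0.11 and -0.01. Myod1 had -0.33 and -0.06, muscle creatine kinase Ckm -0.18 and 0.13, desmin (Des) -0.47 and -0.04, and the matrix receptor subunit Itgb1 0.54 and 0.08. Mef2c, a cofactor of the myogenic factors, had 25.1 and 17.2 CPM on AUF1 polysomes and 8.48 and 15.3 CPM in AUF1 total RNA, against 7.95 and 13.8 CPM on WT polysomes and 6.84 and 14.8 CPM in WT total RNA. Its shift was 1.34 in replicate 1 and 0.27 in replicate 2, and 0.62 and 0.18 with the trend removed, and AUF1 polysome replicate 1 over AUF1 total replicate 1 was the pair that stood apart. Cytoplasmic actin (Actb) had -0.01 and 0.19, the matrix glycoprotein Sparc 0.33 and 0.18, and Ppargc1a, a coactivator of mitochondrial biogenesis, -0.24 and 0.21. The edgeR adjusted p was 1.00 for each. The levels of Sparc and Itgb1 were split between the numbers far more than their shifts. Sparc had 4526 and 394 CPM in AUF1 total RNA and 9124 and 664 CPM in WT total RNA. Itgb1 had 485 and 83.1 CPM in AUF1 total RNA and 615 and 86 CPM in WT total RNA.

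Collagens, the fibrous proteins of the matrix, stood at -0.32 and -0.16 relative to all genes over 32 tested genes. Only Col8a1 was above 0 in both numbers (3.12%), a gene named after its values were seen, and 20 were below (62.5%), or 13 with library totals alone. These genes are rich in GC (median 56.2%), and with the trend removed the medians were -0.23 and -0.07, with 2 above and 12 below (37.5%, against 27.2% of all genes). Of the 32 only 15 reached a mean log2 CPM of 3, and of these 12 were below 0 in both. Among the named members, Col16a1 had shifts of -0.39 and -0.47, and 0.19 and -0.39 with the trend removed. Col4a5, a chain of basement membrane collagen, had 5.69 and 2.69 CPM on AUF1 polysomes and 7.74 and 2.81 CPM in AUF1 total RNA, against 20.3 and 7.46 CPM on WT polysomes and 17.7 and 6.15 CPM in WT total RNA. Its loading was below 0 in both AUF1 pairs and above 0 in both WT pairs, with shifts of -0.63 and -0.34. Col11a2 (-1.30 and -0.85) and Col14a1 (-0.55 and -0.31) were near or below 1 CPM in most libraries.

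The hnRNP proteins, the family of AUF1, and the SR proteins, a separate family, bind pre-mRNA and act in its splicing. Their 33 genes stood 0.37 above all genes in replicate 1 and 0.10 above in replicate 2, with 22 above 0 in both numbers (66.7%) and 4 below, Hnrnpa0, Hnrnpd, Hnrnpul1 and Srsf9. They are poor in GC (median 44.1%), and with the trend removed the medians were 0.10 and 0.04, with 13 above (39.4%, against 27% of all genes) and 5 below (15.2%). Hnrnpk, a KH domain protein that binds C-rich RNA, had 135 and 124 CPM on AUF1 polysomes and 114 and 164 CPM in AUF1 total RNA, against 93.3 and 95.9 CPM on WT polysomes and 137 and 167 CPM in WT total RNA. Its shift was 0.79 and 0.39, with loadings that did not overlap, and 0.24 and 0.30 with the trend removed. Hnrnpr had 0.76 and 0.24, and -0.24 and 0.25 with the trend removed. Ptbp2, a splicing repressor, had 0.64 and 0.32, and -0.06 and 0.19. The replicate 1 shift of both thus turned negative with that step and the replicate 2 shift did not.

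AU-rich mRNAs, the class AUF1 is known to bind, did not stand apart. The 54 tested genes of a list of such mRNAs from general knowledge of the field stood at -0.03 and -0.01 relative to all genes, with 14 above 0 in both numbers (25.9%, against 28.5% of all genes) and 21 below (38.9%, against 31.1%). With the trend removed the medians were -0.01 and 0.01, with 13 above and 15 below. With library totals alone 22 were above (40.7%) and 16 below (29.6%), while all genes moved to 35.9% and 25.1%. Loading did not overlap for 2 of the 54 on the higher side (8.98% of all genes) and for 5 on the lower side (9.66%). The 22 AU-rich element binding proteins stood at 0.01 and 0.04, and at -0.08 and 0.05 with the trend removed.

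Pim1, with the densest element shown above, had 47.7 and 54.7 CPM on AUF1 polysomes and 46.2 and 48.9 CPM in AUF1 total RNA, against 62.4 and 54.7 CPM on WT polysomes and 43.9 and 41.6 CPM in WT total RNA. Its loading was lower in both AUF1 pairs, with shifts of -0.46 and -0.23 and an edgeR estimate of -0.35 ± 0.33 (SE, n = 2 per group, adjusted p = 1.00), and -0.10 and -0.17 with the trend removed. Jund, with a single ATTTA, had shifts of -0.88 and -0.24, and -0.39 and -0.15 with the trend removed. Egr3, a zinc finger transcription factor of the immediate early class, had -0.27 and -0.23, and -0.10 and -0.25 with the trend removed. The chemokine Ccl7 was on the other side with 0.40 and 0.36, at 4.03 to 14.9 CPM, and 0.14 and 0.26 with the trend removed.

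Cdkn1a and Ccnd1 are mRNAs that AUF1 is known to bind. Cdkn1a, the p21 inhibitor of cyclin-dependent kinases (chr17:29090976-29100727), stood at 4546 and 5231 CPM on AUF1 polysomes and at 5205 and 3680 CPM in AUF1 total RNA, against 1593 and 1976 CPM on WT polysomes and 1327 and 1259 CPM in WT total RNA. Its level was higher in every AUF1 library, and its shift was -0.46 and -0.14 with overlapping loadings. Ccnd1, cyclin D1, which drives entry into S phase (chr7:144929931-144939925), had 91.0 and 71.8 CPM on AUF1 polysomes and 94.3 and 68.7 CPM in AUF1 total RNA, against 153 and 215 CPM on WT polysomes and 164 and 220 CPM in WT total RNA. Its level was lower in every AUF1 library, and its shift of 0.05 and 0.09 was close to 0 in both numbers.

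Over the whole transcriptome the shift climbed with the number of ATTTA pentamers in the 3′ UTR, but not within a GC band of 45 to 50%, the 1 band examined. Genes with 0, 1 to 2, 3 to 5, 6 to 9 and 10 or more pentamers (4231, 3942, 2375, 1182 and 711 genes) had median shifts of -0.26, -0.11, 0.15, 0.40 and 0.60 in replicate 1. In replicate 2 the same bins had -0.02, 0.00, 0.03, 0.05 and 0.07. Genes with more pentamers are poorer in GC, with a median of 54.6% in the lowest bin and 42.2% in the highest. Within the 45 to 50% GC band the 5 bins had 0.18, 0.20, 0.18, 0.20 and 0.18 in replicate 1 and 0.04, 0.04, 0.04, 0.01 and 0.02 in replicate 2, so the trend was flat there in both numbers.

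**Figure D5:**
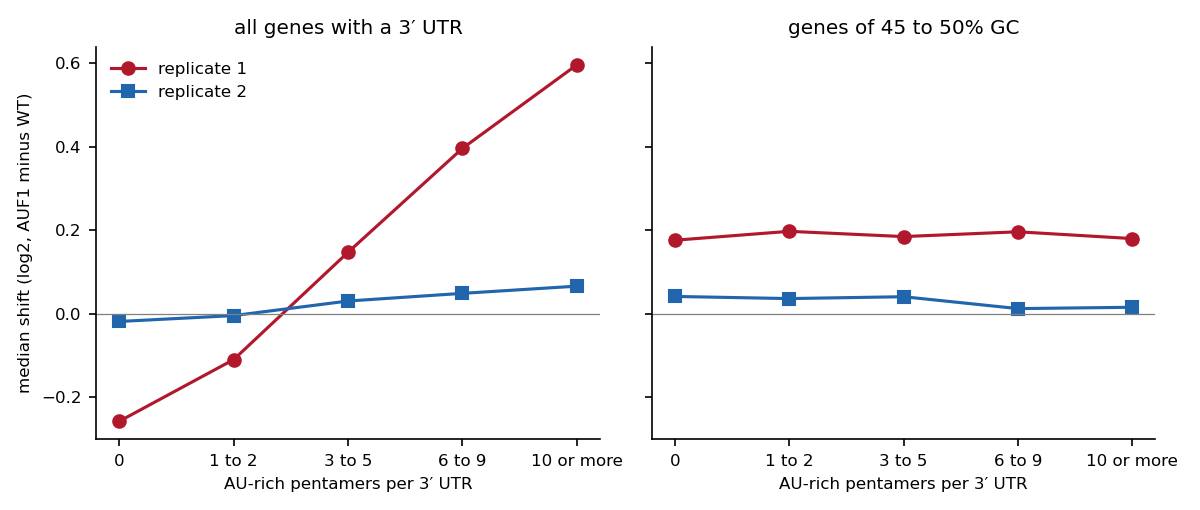
Median shift (y axis, log2, AUF1 minus WT) by the number of ATTTA pentamers in the 3′ UTR (x axis), for all genes with a 3′ UTR (left) and for those of 45 to 50% GC (right), in replicate 1 (circles) and replicate 2 (squares). On the left replicate 1 climbs from -0.26 to 0.60; on the right both lines are flat, at 0.18 to 0.20 and at 0.01 to 0.04.

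Coding length limits how many ribosomes an mRNA can hold. Median shifts over 10 equal bins of coding length stayed between -0.13 and 0.00 in replicate 1 and between -0.06 and 0.04 in replicate 2. With the trend on GC and transcript length removed they ran from -0.23 in the longest bin to 0.07 in replicate 1 and from -0.09 in the shortest bin to 0.03 in replicate 2. The Spearman coefficients of those shifts with coding length were -0.05 in replicate 1 and 0.14 in replicate 2. Loading itself differed between the numbers. Across 12610 genes the Spearman coefficient of loading with coding length was 0.05 in AUF1 and 0.10 in WT in replicate 1, and -0.45 in AUF1 and -0.41 in WT in replicate 2, where long coding sequences were thus the less represented ones on polysomes. Malat1, a noncoding RNA kept in the nucleus, had 11.5 and 9.14 CPM on AUF1 polysomes and 7.92 and 18.5 CPM in AUF1 total RNA, against 7.10 and 3.43 CPM on WT polysomes and 9.32 and 17.9 CPM in WT total RNA. It was more abundant on polysomes than in total RNA only in AUF1 replicate 1, and its shift was 0.92 and 1.35, with loadings that overlapped (0.53 and -1.02 in AUF1, -0.39 and -2.37 in WT). With the trend removed the shift of Malat1 was 0.12 and 1.29. Neat1, another nuclear noncoding RNA, was lower on polysomes than in total RNA in all 4 pairs, with shifts of 0.02 and -0.36.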

How the data were processed

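The values are raw counts per gene symbol, deposited by the authors as 1 column per library with 23420 lines for genes. Per the submitters' processing notes, the tools included STAR, Bowtie, SAMtools, Trimmomatic and cutadapt, and the build was mm10. For versions, counter, strand setting and annotation, nothing is stated in the sources used here. The 5 summary lines were left out of totals and tests, and of these reads outside any gene came to 6.04% to 7.23% and ambiguous reads to 0.254% to 0.389%. A further 27 names had become dates. These genes (0.216% to 0.327% of counts) entered the fits and are not named.

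Genes were kept by filterByExpr (13167 genes) and scaled by TMM. The interaction was tested two-sided in edgeR 4.0.16 (R 4.3.3) with 1 coefficient per group, 4 residual degrees of freedom and Benjamini and Hochberg adjustment over all genes, with SE taken as the log2 estimate over the square root of F. DESeq2 1.42.0 and the blocks were alternatives. Shifts use log2 CPM with a prior count of 2. GC content, lengths, positions and 3′ UTRs come from 1 GENCODE M21 transcript per gene. A loess trend (span 0.5) on GC and log2 length was subtracted. The fit was tested on simulated data with a small fixed spread and no difference between the replicate numbers. That test therefore does not show how the fit performs on these libraries.

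The comparison and the gene lists were chosen with earlier results of these data known. The naming rule takes Hnrnpd, then up to 10 genes per direction whose mean log2 CPM is 3 or more. These must have shifts of at least 1.5-fold in both numbers and loadings that do not overlap. The rule adds up to 4 members of each of 7 described lists with the largest smaller shift in 1 direction, and 14 genes by name. Symbols that are no proper gene name, such as Gm or Rik models and dates, are passed over. Psmb6, Psmd1, Psmd3, Psmd8, Psmd9, Col8a1, Hnrnpa0, Hnrnpul1, Srsf9, Myh1, Myh7, Hspa1b and Krt8 were named after their values were seen. Whether replicate numbers pair libraries was checked by the correlation of deviations from group means, which was 0.62 to 0.81 between groups. With only 2 numbers, and no label saying what they share, the model has no pairing.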

Additional observations from a re-analysis of the deposited data

Results flagged for a closer look

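For 10 of the named genes both AUF1 pairs moved 1 way between total and polysome RNA and both WT pairs moved the opposite way. The difference itself, tested as the edgeR interaction, gave an adjusted p of 1.00 for each, so none passed, and with 2 pairs per genotype such a pattern can arise without any effect. Mrpl1, Fastkd2, Thnsl1 and Cd109 were named by a rule that required loadings that do not overlap. The rest were picked from lists for large shifts of 1 sign, so the choice of genes partly sets the pattern. Over all genes, loadings did not overlap for 8.98% on the higher side and 9.66% on the lower side. The share of all genes with opposite directions was not counted. On the higher side, the mean shift over both numbers was 0.93 for Mrpl1, 0.77 for Fastkd2, 0.75 for Thnsl1, 0.71 for Cd109 and 0.54 for Psmd10. On the lower side it was -1.19 for Hspa1l, -0.78 for Hspa1a, -1.08 for Col11a2, -0.49 for Col4a5 and -1.63 for Myoz1. Hspa1l, Hspa1a, Col11a2 and Myoz1 were scarce, at no more than 3.67 CPM in any library.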

How the results depend on the processing

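The count of genes called in the interaction was 0 under every alternative run, with 12 to 399 genes at an unadjusted p under 0.05 when 1 library was left out. The 399 came without AUF1 total replicate 2, which leaves that group with the library that stands apart in GC. A group left with 1 library is assumed to vary like the others. With the replicate block 0 genes were called and 49 had an unadjusted p under 0.05. With the replicate block within genotype 0 were called and 64 had an unadjusted p under 0.05 (smallest adjusted p 0.586, Krt8). With a GC and length offset 0 were called, with 18, and with that offset and the replicate block 0, with 64. Neither block changed a call. Both blocks take up a difference in level only, and neither has a term for a difference in loading between the numbers. Loading had a Spearman coefficient of only 0.10 between the AUF1 replicates and 0.21 between the WT replicates.

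Genes shifted at least 1.5-fold in both numbers came to 357, and to 870 with no filter, 25 at a mean log2 CPM of 3 or more, 202 with a prior count of 8 and 99 at 2-fold. The same-sign share of 59.7% became 61.0% with library totals only, 52.6% with no filter, 61.9% at a mean log2 CPM of 3 or more and 54.1% with the GC and length trend removed. The cause of these differences was not tested.

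List medians relative to all genes (mean of both numbers) moved by more than the spread between the numbers as follows. With the GC and length trend removed they were -0.016 for mitochondrial ribosomal proteins, 0.018 for translation factors, 0.13 for the proteasome, 0.14 for chaperones, 0.011 for ATF4 targets, -0.12 for collagens, -0.048 for matrix glycoproteins, -0.042 for calcium handling, -0.060 for the neuromuscular junction, -0.0041 for AU-rich mRNAs, 0.068 for hnRNP and SR proteins, -0.0023 for DNA replication, -0.018 for Wnt genes and 0.021 for growth factors. With no filter they were 0.20 for the proteasome, 0.19 for chaperones, 0.054 for cholesterol synthesis, -0.0078 for AU-rich mRNAs and 0.092 for DNA replication. At a mean log2 CPM of 3 or more they were 0.066 for AU-rich element binding proteins, -0.075 for Wnt genes and -0.038 for growth factors, which had 0.022 with a prior count of 0.5. The longest coding sequences minus the shortest (outer bins of 10) differed by -0.013 with the trend removed, against 0.03, as a mean of both numbers, which differ in sign with the trend removed. From 1 number alone the lists ranged from -0.057 to -0.020 for mitochondrial ribosomal proteins, 0.023 to 0.050 for translation factors, 0.17 to 0.20 for the proteasome, 0.14 to 0.17 for chaperones, 0.029 to 0.18 for endoplasmic reticulum chaperones, -0.14 to -0.036 for integrins, -0.24 to -0.12 for calcium handling, -0.026 to 0.0068 for cholesterol synthesis, -0.035 to -0.0065 for AU-rich mRNAs, 0.063 to 0.083 for DNA replication, -1.15 to -0.29 for small nucleolar RNAs, 0.030 to 0.15 for lysosome genes, -0.13 to -0.078 for Wnt genes, -0.015 to -0.0033 for growth factors, -0.25 to 0.065 for iron responsive mRNAs and 0.023 to 0.19 for other TOP mRNAs.

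Of the named genes, edgeR's interaction estimate turned positive for Myog (0.014) and Ckm (0.014) with library totals only. With the GC and length offset it was 0.059 for Myog, 0.035 for Myod1, 0.099 for Ckm and -0.24 for Ppargc1a, and with that offset and the replicate block 0.074, 0.044, 0.076 and -0.25. Leaving out 1 library at a time turned the sign in 22 of 50 genes. The ranges were -0.14 to 0.27 for Actb, -0.35 to 1.29 for Ccl7, -0.17 to 0.32 for Ccnd1, -0.36 to 1.80 for Cd109, -0.61 to 0.75 for Ckm, -1.53 to 0.20 for Col14a1, -1.35 to 0.66 for Col16a1, -1.43 to 0.35 for Col4a5, -0.64 to 0.091 for Des, -0.59 to 0.086 for Egr3, -0.12 to 1.68 for Fastkd2, -0.14 to 1.22 for Hnrnpr, -0.052 to 1.57 for Hsp90aa1, -1.45 to 2.25 for Itgb1, -0.63 to 0.28 for Myod1, -0.31 to 0.24 for Myog, -0.59 to 0.27 for Neat1, -1.21 to 0.84 for Ppargc1a, -0.099 to 1.07 for Ptbp2, -2.44 to 2.98 for Sparc, -0.23 to 1.84 for Tmem168 and -2.06 to 4.15 for Tspan6. By its construction such a fit sets libraries of different numbers against each other. Counting error limits genes near 1 CPM. The count of calls rests on 2 libraries per group.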

Other observations

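Further muscle and membrane classes lay below the median of all genes in both numbers as measured. Calcium handling and excitation genes, which couple the nerve signal to contraction, stood at -0.24 relative to all genes in replicate 1 and at -0.12 in replicate 2 over 30 genes, with 3 above 0 in both numbers and 18 below (60%, against 31.1% of all genes). With the GC and length trend removed they were at -0.05 and -0.09, with 3 above and 11 below. Genes of the neuromuscular junction (24 genes) stood at -0.26 and -0.08, and at -0.07 and -0.05 with the trend removed. Matrix glycoproteins and proteoglycans (43 genes) stood at -0.22 and -0.10, and at -0.02 and -0.08. Integrin subunits (20 genes) stood at -0.14 and -0.04, and at -0.20 and -0.00 with the trend removed. Selenoproteins (15 genes) stood at -0.23 and -0.06, and at -0.09 and -0.04. Targets of the stress factor ATF4 (26 genes) stood at -0.28 and -0.07, and at -0.09 and -0.02, and over the mean of both numbers their median turned to 0.011 with the trend removed. Wnt feedback genes and effectors (32 genes) stood at -0.13 and -0.08, but at 0.03 and -0.06 with the trend removed. All 7 of these classes have a median GC content above the 50.6% of all genes. The 34 myogenic regulators and fusion genes stood at 0.36 in replicate 1 and 0.01 in replicate 2, with 16 above 0 in both numbers and 11 below, and at 0.07 and 0.01 with the trend removed.

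Glycolysis genes (26 genes) stood at -0.21 in replicate 1 and 0.15 in replicate 2, where 20 were above 0, and at -0.08 and 0.18 with the trend removed. Cytoskeletal actins and tubulins (37 genes) also differed in sign between the numbers, with -0.26 and 0.09, and -0.09 and 0.12 with the trend removed. Lysosome and cathepsin genes (46 genes) stood at 0.15 and 0.03, with 21 above 0 in both numbers (45.7%, against 28.5% of all genes) and 9 below, and at 0.16 and 0.02 with the trend removed. Endoplasmic reticulum chaperones (29 genes) stood at 0.18 and 0.03, and at 0.09 and -0.04. Nuclear-encoded respiratory complexes (81 genes) stood at -0.09 and -0.03, and at -0.01 and -0.04. Mitochondrial ribosomal proteins (75 genes) stood at -0.06 and -0.02, and at -0.02 and -0.03 with the trend removed. Cholesterol and fatty acid synthesis genes (29 genes) stood at -0.03 and 0.01, and at 0.08 and 0.01. Secreted growth factors (42 genes) stood at -0.00 and -0.02, and at 0.14 and -0.02. DNA replication and mitosis genes (49 genes) stood at 0.08 and 0.06, and at -0.07 and 0.07 with the trend removed. Histones (24 genes) stood at 0.26 and -0.10, and at 0.02 and -0.06. Iron responsive mRNAs (9 genes) stood at -0.25 and 0.07, and at -0.09 and 0.07. The list of mitochondrially encoded genes had 0 genes in the table.

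Zinc finger proteins of the Zfp family (322 genes), which are poor in GC (median 45.8%), stood at 0.39 in replicate 1 and -0.01 in replicate 2, and at 0.04 and -0.04 with the trend removed. Noncoding RNA hosts and nuclear noncoding RNAs (18 genes) stood at 0.37 and 0.04, and at 0.10 and 0.04. Small nucleolar and spliceosomal RNAs stood at -0.29 and -1.15, and at -0.37 and -1.07 with the trend removed, but only 7 of the 124 in the table passed the filter on low counts, so a member high in 1 group could pass through that group alone. Krt8, an epithelial keratin, stood at 0.559 and 0.369 CPM on AUF1 polysomes and 0.560 and 0.296 CPM in AUF1 total RNA, against 20.1 and 0 CPM on WT polysomes and 0.284 and 0 CPM in WT total RNA. WT polysome replicate 1 was thus the only library where it was above 1 CPM.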
